A study of Homo sapiens with 10 samples.

Results

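ZEB1 signal was followed at 6 genes that build the anchor between epithelial cells and the basement membrane. LAMA3 and LAMB3 encode the alpha and beta chains of laminin-332, ITGA6 and ITGB4 encode the subunits of its integrin receptor, and PLEC and DST encode plakins that tie the receptor to keratin filaments. The members are the sites of the deposited count table whose midpoint lay inside one of these genes, as RefSeq places them on GRCh38, or within 20 kb of either end. Position alone chose the sites of these genes, but the genes themselves were chosen with earlier results of these data known. Of 52981 consensus sites, 75 met the rule, 58 of them inside a gene body. DST held 23 sites, PLEC 13, LAMA3 12, LAMB3 12, ITGA6 8 and ITGB4 7. A site within the margin can belong to a neighbouring gene, and neighbours whose body or end came within 1 kb are named beside it.

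Laminin-332 is secreted by epithelial cells into the basement membrane, where it is the ligand of integrin alpha 6 beta 4. On the inner face of the membrane, the long tail of the beta 4 subunit binds plectin and the epithelial form of dystonin, and these plakins bind keratins, which together make a hemidesmosome. ZEB1 is a zinc finger repressor that binds E-box sequences, mostly CACCTG, in epithelial genes during the epithelial-mesenchymal transition, and carcinoma cells that pass through this transition lose stable epithelial adhesions. Laminin-332 and its receptor are also known to support the migration of carcinoma cells.

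The data come from CUT&RUN, in which an antibody to ZEB1 guides a nuclease to the sites that the protein occupies and the cut fragments are sequenced. The cells were human breast cancer cells with the line label MDA_Parental and the type label Er-/Pr-/Her2-. Untreated cells were compared with cells, labelled MDA_ERI, that received 300 nM eribulin, an inhibitor of microtubule growth used against breast cancer, for 24, 48 or 72 h, with 2 ZEB1 libraries in each of the 4 conditions. All exposure times share the untreated libraries, for which the labels give no time, so the effects of the drug and of hours in culture cannot be told apart. Whether MDA_ERI names a treatment or a line that differs from MDA_Parental is not given in the sources used here, so a difference between lines cannot be told apart from treatment in any comparison with untreated cells. The 2 IgG libraries of untreated cells were not analysed here. Sample descriptions also name Tn5, which is no part of CUT&RUN, and the protocol is uncertain to that extent.

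Library totals over consensus sites ran from 3561455 counts in an untreated library to 1130706 in a 72 h library. Paired libraries of a condition differed by less than sampling noise, with a chi-square per degree of freedom from 0.830 to 0.951, so each pair was counted as 1 sample (n = 1 per condition). The values below are CPM, the counts scaled by library size with TMM, for each library or for the pooled pair. Bracketed ranges are 95% intervals (exact binomial, from the summed counts of a pair) and cover counting error only. A site is called higher or lower where the edgeR quasi-likelihood test gave an adjusted p under 0.05. Such a call compares these libraries and not the conditions, because nothing measures the spread between cultures. TMM centres all sites on each other, so higher and lower mean relative to the other sites. A second scale, the genome-wide background floor that the peak caller used, puts the sites of the treated libraries lower as a whole. It moved the median log2 fold change of all sites by -0.93, -1.41 and -1.50 at the 3 times, and by -0.57 for 72 h against 24 h. Where it turns a direction, its value is given as floor-scaled.

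Promoter sequences from RefSeq (GRCh38.p14) are shown for 4 starts. The data place a ZEB1 site at 3 of them, and they differ in the number of CACCTG they hold. Because the choice rests partly on these letters, their share is no comparison with all promoters. Each run is the 250 bases before the listed transcription start, 5′ to 3′ along the gene. Capitals mark CACCTG, read on either strand (CAGGTG is the same E-box on the opposite strand), and the AP-1 motif TGANTCA. Of 35116 promoter windows of this length, 17.5% hold CACCTG and 6.57% hold TGANTCA. A match describes the letters only. ITGB4 and PLEC had no entry. Further listed windows of LAMB3, ITGA6 and DST are not printed and hold no CACCTG. All of these but the DST window chr6:56851906-56852155 overlap a site. The unprinted window of the LAMB3 internal start (chr1:209651375-209651624) holds a TGANTCA that lies inside its site.
LAMB3, chr1:209652426-209652675, minus strand: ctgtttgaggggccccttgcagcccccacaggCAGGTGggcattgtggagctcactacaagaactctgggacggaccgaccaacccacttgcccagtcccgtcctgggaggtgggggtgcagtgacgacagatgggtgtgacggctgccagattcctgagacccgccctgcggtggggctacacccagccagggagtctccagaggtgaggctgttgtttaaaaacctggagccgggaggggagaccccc
ITGA6, chr2:172427086-172427335, plus strand: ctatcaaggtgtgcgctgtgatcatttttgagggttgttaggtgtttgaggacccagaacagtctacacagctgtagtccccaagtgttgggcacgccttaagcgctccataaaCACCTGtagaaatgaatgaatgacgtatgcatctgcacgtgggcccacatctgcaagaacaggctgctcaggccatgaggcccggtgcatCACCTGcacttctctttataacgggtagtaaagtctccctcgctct
LAMA3, internal start, chr18:23872770-23873019, plus strand: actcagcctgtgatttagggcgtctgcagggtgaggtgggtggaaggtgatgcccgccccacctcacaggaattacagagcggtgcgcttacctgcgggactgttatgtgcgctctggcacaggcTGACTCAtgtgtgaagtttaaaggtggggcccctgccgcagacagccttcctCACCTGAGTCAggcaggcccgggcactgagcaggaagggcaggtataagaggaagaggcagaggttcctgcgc
DST, chr6:56954831-56955080, minus strand: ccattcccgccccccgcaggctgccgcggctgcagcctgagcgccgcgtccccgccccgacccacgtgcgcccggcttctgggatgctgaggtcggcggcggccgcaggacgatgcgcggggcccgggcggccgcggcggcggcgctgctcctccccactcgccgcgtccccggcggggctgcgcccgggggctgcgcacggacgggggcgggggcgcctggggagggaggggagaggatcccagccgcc
The LAMB3 window holds 1 CACCTG, the ITGA6 window 2, and the DST window neither marked motif. E-boxes of other sequence were not marked or counted. In the window of the internal LAMA3 start the CACCTG and an AP-1 motif share letters, and a further AP-1 motif lies upstream. Sites of the count table overlapped the LAMB3, ITGA6 and DST windows but not that of LAMA3. The ITGA6 site holds the second of its 2 marked CACCTG, and the marked CACCTG of LAMB3 lies outside the site there.

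Across the 70 member sites with enough counts to test, ZEB1 signal was mixed at 24 h and leaned upward at 48 and 72 h. At 24 h, 16 sites were lower and 19 higher, against 26.8% lower and 28.1% higher of all 46436 tested sites. At 48 h, 7 were lower and 19 higher, where all tested sites gave 16.9% and 16.8%. At 72 h, 7 were lower and 26 higher (17% and 18.9% of all). The median log2 fold change of the members was -0.04, 0.19 and 0.42 at the 3 times, beside 0.02, -0.01 and 0.00 over all tested sites. Between 24 and 72 h, 28 member sites were higher and 7 lower, against 19.4% and 16.4%, with a median of 0.43 beside -0.01. On the floor scale these directions turn: 50, 60 and 57 members were then lower than in untreated cells and 6, 2 and 2 higher. Between 24 and 72 h, 22 were lower and 17 higher on that scale. Of all sites called on the floor scale, 91.46%, 95.76% and 97.20% were lower at the 3 times, and 85.05% between 24 and 72 h. Lower calls were thus a smaller part of the member calls than of all calls between 24 and 72 h, a difference that was not tested. Floor-scale counts of single genes below are to be read beside these shares. Counting changes of at least 2-fold, 8 members were lower and 9 higher at 24 h (13.5% and 14.9% of all tested sites). At 48 h these counts were 4 and 8 (7.55% and 10.5%), at 72 h 4 and 13 (8.55% and 12.2%), and between 24 and 72 h 4 and 20 (9.29% and 12.1%). If cultures varied with a coefficient of 0.2, 3 lower and 12 higher calls would pass at 72 h. Without either 48 h library, 4 sites were lower at 48 h, and without any 1 of the 4 libraries compared, 3 or 4 were lower between 24 and 72 h.

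The 6 genes did not move alike. DST carried most of the higher calls at 24 h, with 13 higher and 0 lower of 22 tested sites (6 of the 13 at sites without an untreated peak), while PLEC had 7 lower and 0 higher of 13. By 72 h, LAMB3 had 7 higher and 1 lower of 11 sites, with 2 of the 7 at sites without an untreated peak. PLEC then had 7 higher and 2 lower of 13, whereas LAMA3 had 4 lower and 1 higher of 11. All tested sites gave 26.8% lower and 28.1% higher at 24 h, then 17% and 18.9% at 72 h. Summed over all of its sites, LAMB3 went from 460.4 CPM in untreated cells to 386, 562 and 776 CPM at the 3 times, and PLEC from 634 to 501, 1025 and 1094 CPM. DST was highest at 24 h (339, 505, 429.8 and 444 CPM), and LAMA3 lowest at 72 h (127, 123, 120.2 and 92.8 CPM). These sums are on the TMM scale. On the floor scale the median site of LAMB3 and PLEC was below untreated cells at 72 h (log2 -0.84 and -0.85). The median DST site was below them at 24 h (-0.32). The difference between genes was not tested as such, since sites of a gene share its chromatin and are not replicates.

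**Figure D1:**
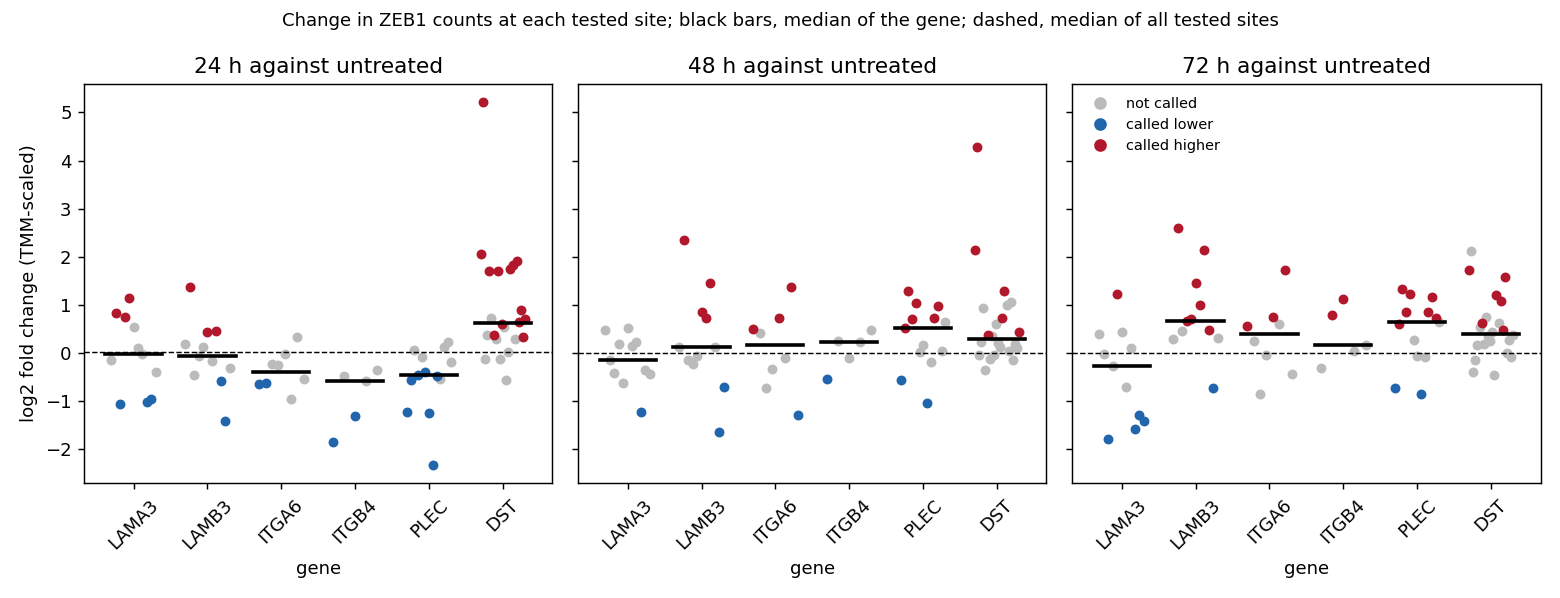
Each point is 1 tested site, with its TMM-scaled log2 fold change against untreated cells at 24, 48 and 72 h on the vertical axis and its gene on the horizontal axis. Red and blue points passed the edgeR test, black bars are gene medians and the dashed line is the median of all tested sites. DST lies above the line at 24 h and LAMB3 and PLEC at 72 h, while on the floor scale 57 of the 70 sites are lower at 72 h.

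Peaks in the authors' lists became fewer with time at the members as elsewhere. Of the 75 sites, 65 held a peak in untreated cells and 46, 34 and 26 at the 3 times, and over all consensus sites the shares were 86.6%, 61.3%, 39.4% and 32.1%. Of the members, 21 had a peak in all 4 conditions and 25 in untreated cells alone. Library totals also fell with time, and the part of depth in these peak counts was not tested. A lost peak did not always go with a lower TMM-scaled level. The PLEC site chr8:143942054-143942588, with a peak in untreated cells alone, went from 37.0 to 66.5 CPM pooled at 72 h (floor-scaled log2 -0.66). The 10 sites without an untreated peak entered the consensus through a treated list, 8 of them at DST and 2 at LAMB3, so a higher value there is partly fixed by how the table was built. Among the 9 of these that were tested, 8 were called higher at 24 h, where all tested sites without such a peak gave 68.4%. Among the 61 tested members that did have an untreated peak, 16 were lower and 11 higher at 24 h and 7 lower and 21 higher at 72 h, where all tested sites with such a peak gave 30.5% and 22.4%, then 19.4% and 13.5%.

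**Figure D2:**
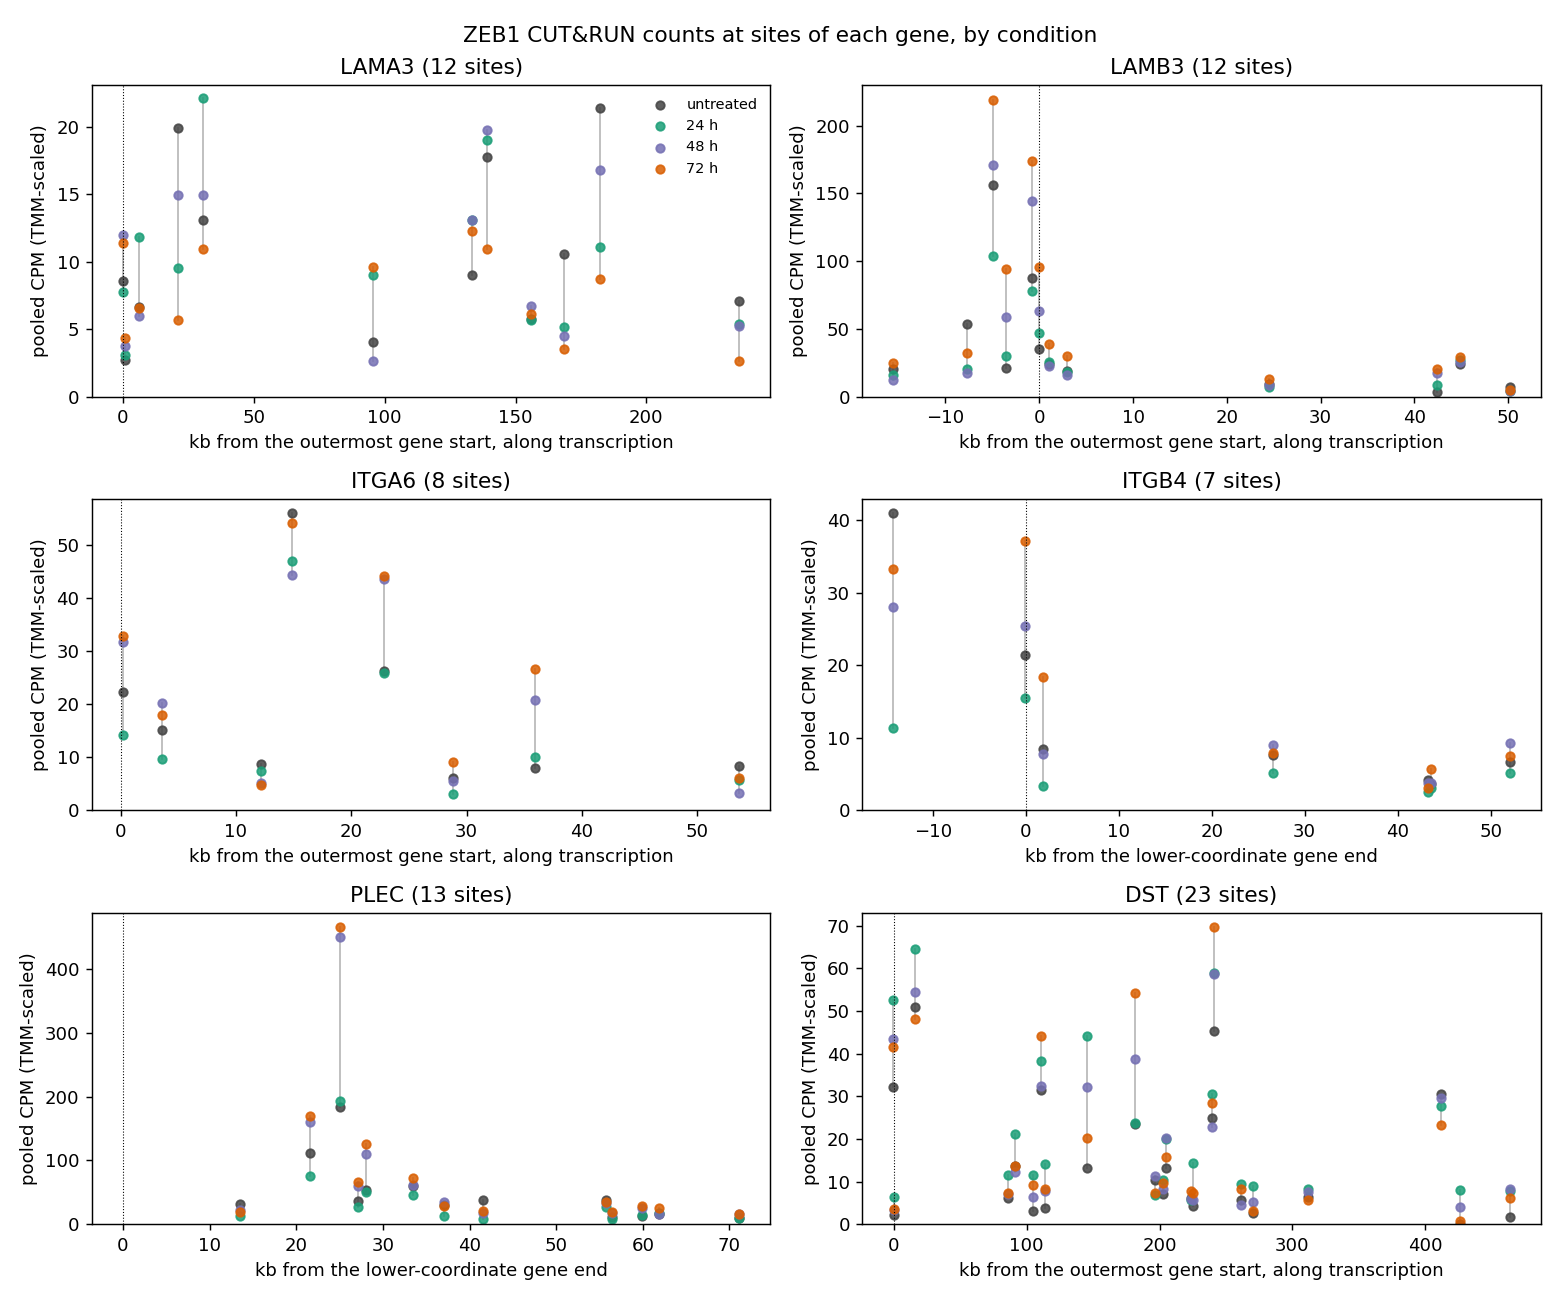
Pooled TMM-scaled CPM on the vertical axis of every member site, by its distance in kb from the gene start along transcription (from the lower-coordinate gene end for ITGB4 and PLEC) on the horizontal axis, with 1 colour per condition. The strongest LAMB3 sites lie within 5 kb upstream of its start, and those of PLEC in a cluster inside the gene.

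LAMB3 (chr1:209614870-209652425, minus strand) encodes the beta 3 chain, which is found only in this laminin. Its 5 strongest sites all lay at or upstream of the start, and by 72 h 4 of them had risen and 1 had fallen. Among the 4 is a site 3.54 kb upstream that held no untreated peak. The site over the start (chr1:209652314-209652619), which overlaps the promoter printed above, had 31.4 and 39.0 CPM untreated, 47.8 and 46.4 at 24 h, 58.2 and 68.6 at 48 h, then 103 and 86.9 at 72 h. No treated library overlapped an untreated one, and every later time was above the one before. The log2 fold change was 0.43 (0.14 to 0.71), 0.86 (0.56 to 1.15) and 1.44 (1.17 to 1.72; edgeR adjusted p = 9.27e-22).

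At 0.755 kb upstream, the second site (chr1:209653006-209653354) had 86.7 and 88.4 CPM untreated, 81.0 and 75.4 at 24 h, 147 and 141 at 48 h, then 179 and 168 at 72 h. It was not called at 24 h (log2 -0.16, -0.37 to 0.04) and rose by 0.72 at 48 h and 0.99 at 72 h on the log2 scale (adjusted p = 2.87e-22 at 72 h). The site at chr1:209655873-209656053, 3.54 kb upstream, changed most of these: 18.4 and 24.8 CPM untreated, then 28.7 and 30.6, 55.9 and 61.3, and 90.6 and 98.7 CPM. Its log2 fold change at 72 h was 2.14 (1.83 to 2.46; adjusted p = 2.95e-34), and the floor-scaled value was 0.64. This site held no peak in untreated cells and a peak at each treated time. It thus entered the table through the lists of libraries in which it was high, and both values are a description, partly fixed by that entry.

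The strongest LAMB3 site, 4.90 kb upstream (chr1:209657142-209657509), dipped before it rose: 155 and 158 CPM untreated, 99.6 and 109 at 24 h, 163 and 179 at 48 h, then 218 and 221 at 72 h. It was lower at 24 h (log2 -0.59, adjusted p = 1.27e-11), not called at 48 h (0.13) and higher at 72 h (0.49, adjusted p = 2.49e-08). Its neighbour 7.70 kb upstream (chr1:209659996-209660261) also dipped but stayed below the untreated level, with 53.8 and 53.2 CPM untreated, 21.6 and 18.4 at 24 h, 15.1 and 19.2 at 48 h, then 29.6 and 35.3 at 72 h. That site had a peak in untreated cells alone, and fell by 1.41, 1.64 and 0.72 on the log2 scale. Between 24 and 72 h both sites rose (1.08 and 0.69), and their calls were opposite only for 72 h against untreated cells, where the floor scale put both lower (-1.02 and -2.23).

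Inside LAMB3, the site at a listed internal start (chr1:209651286-209651496) was flat until 48 h and higher at 72 h, with 25.2 and 21.9 CPM untreated and 40.6 and 37.1 at 72 h (log2 0.72, 0.33 to 1.10). Of the margin sites, one within the neighbouring kinase gene CAMK1G (chr1:209609882-209610064), named after its values were seen, rose from 3.32 CPM pooled to 8.75, 17.2 and 20.6 CPM (log2 2.61 at 72 h, 1.87 to 3.43). That site held no untreated peak, so its rise is partly fixed by how it entered the table. On the floor scale, LAMB3 had 8 sites lower and 2 higher at 72 h, and the 2 higher ones were those without an untreated peak. The start gave -0.06, the second site -0.52 and the strongest -1.02. For 72 h against 24 h, 9 sites were higher and 0 lower (19.4% and 16.4% of all tested sites), and the floor scale gave 4 higher and 0 lower. Of the 9, 2 were sites without an untreated peak. Leaving out 1 library ended the 24 h call at the start (adjusted p = 0.0546 without 24 h replicate 1 and 0.235 without untreated replicate 1). The same held for the 24 h call 3.54 kb upstream (0.0534 and 0.151 without 24 h replicates 1 and 2, 0.398 without untreated replicate 1) and for the internal start at 72 h (0.0599 without 72 h replicate 1).

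**Figure D3:**
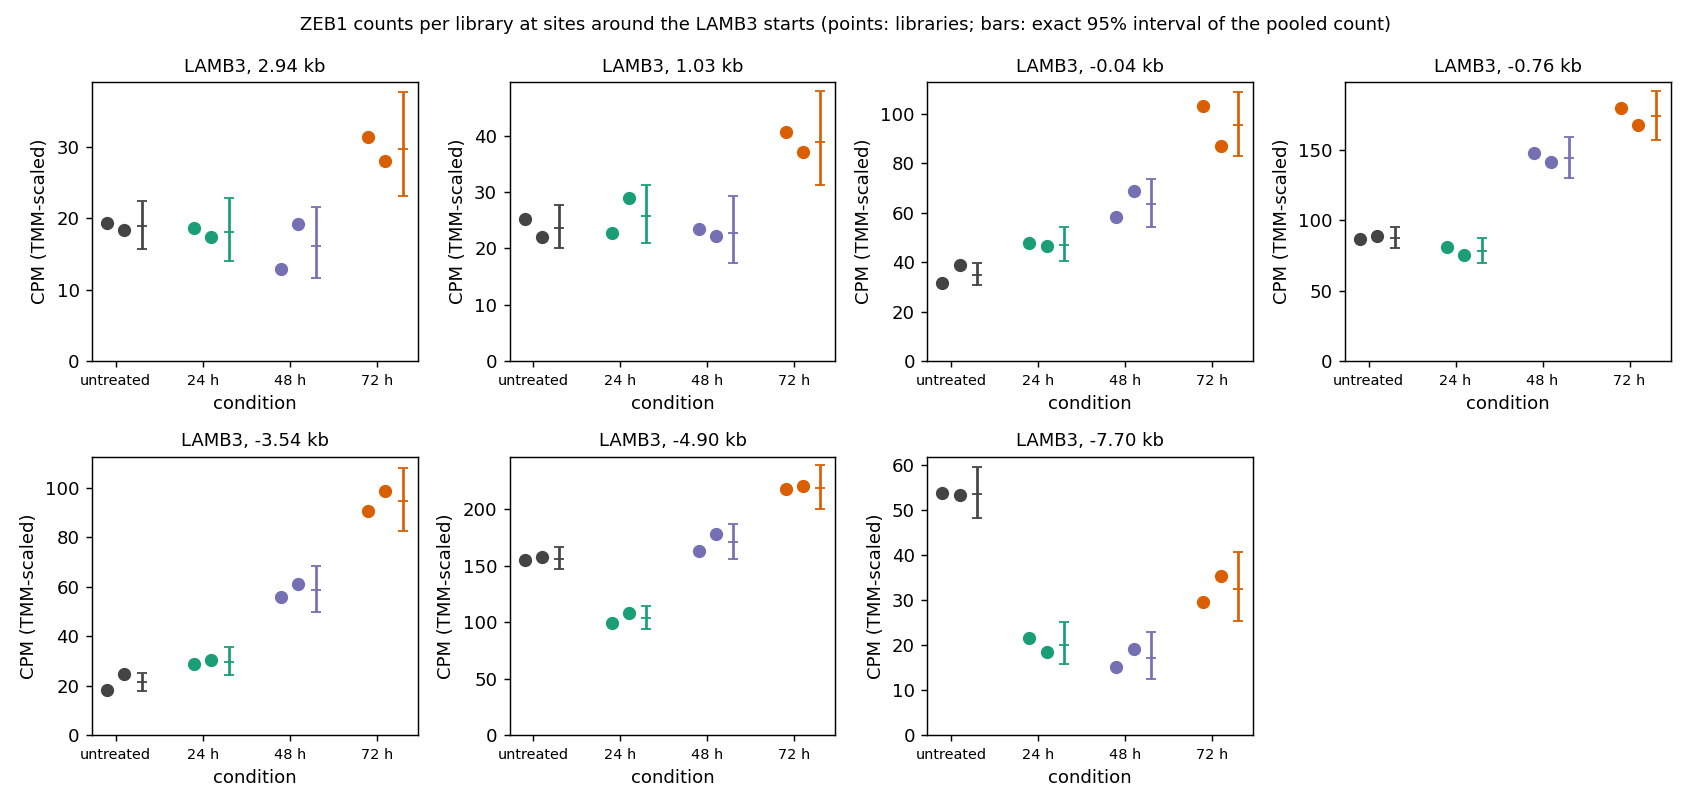
CPM (TMM-scaled) of each library on the vertical axis, by condition on the horizontal axis, at 7 sites around the LAMB3 starts (titles give kb from the outermost start, negative upstream). Points are libraries and bars are exact 95% intervals of the pooled count. The sites at -0.04, -0.76 and -3.54 kb are highest at 72 h, and the site at -7.70 kb is highest in untreated cells. On the floor scale only the -3.54 kb site, which had no untreated peak, is above untreated cells at 72 h among those shown.

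LAMA3 (chr18:23689453-23955066, plus strand) encodes the alpha 3 chain, the part of laminin-332 that integrins bind. It had weak sites throughout, with mean levels from 3.46 to 16.9 CPM, and its ZEB1 signal declined by 72 h. LAMA3 is also longer than 200 kb. Among tested sites inside protein-coding genes of 200 kb or more, 18.6% were lower and 16.9% higher at 72 h than in untreated cells. Between 24 and 72 h, 20.7% of them were lower and 12.7% higher. The part of gene length in the LAMA3 values was not tested. The site over the outer start (chr18:23689171-23689754) was not called at any time, with 7.37 and 10.0 CPM untreated, 7.55 and 7.91 at 24 h, 10.6 and 13.3 at 48 h, then 13.5 and 9.05 at 72 h. The 72 h libraries overlapped the untreated ones, and a second site 0.661 kb into the gene was too weak to test.

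Upstream of the internal start, from which a shorter alpha 3 chain is made, lay the site chr18:23871470-23871759, 1.41 kb before that start. It had 21.5 and 21.3 CPM untreated, 12.1 and 10.0 at 24 h, 13.6 and 19.9 at 48 h, then 7.62 and 9.96 at 72 h. Every treated library was below both untreated ones, and the site was called at 24 h (log2 -0.95, -1.48 to -0.45) and 72 h (-1.29, -2.05 to -0.61; adjusted p = 0.000211) but not at 48 h (-0.35). The largest fall of a LAMA3 site, at chr18:23710315-23710499 and just under the abundance limit of the naming rule, was from 19.9 to 5.69 CPM pooled (log2 -1.80 at 72 h, -2.75 to -0.98).

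An intragenic site, chr18:23719708-23720058, peaked early: 13.3 and 12.9 CPM untreated, 23.1 and 21.1 at 24 h, 15.1 and 14.8 at 48 h, then 7.62 and 14.5 at 72 h. It was higher at 24 h (log2 0.75, 0.31 to 1.20) and lower at 72 h than at 24 h (-1.01), and the floor-scaled 24 h value was -0.18. The strongest LAMA3 site (chr18:23828580-23828747), with 17.6 and 18.1 CPM untreated and 11.9 and 9.96 at 72 h, was the only LAMA3 site with a peak at 72 h and was lower at 72 h than at 24 h (-0.80). That call was lost without any 1 of the 4 libraries compared (adjusted p from 0.0705 to 0.228), and the -1.01 was lost without 72 h replicate 1 (adjusted p = 0.263, log2 -0.59).

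On the TMM scale neither receptor gene had a site called higher at 24 h or lower at 72 h, and at each of these times most of their sites were not called. On the floor scale 7 of 8 ITGA6 and 4 of 5 ITGB4 sites were lower at 72 h. ITGA6 (chr2:172427336-172506459, plus strand) encodes the alpha 6 subunit, which pairs with beta 4 in hemidesmosomes and with beta 1 elsewhere. At its start (chr2:172427226-172427859), over the second CACCTG marked above, the libraries had 22.1 and 22.6 CPM untreated, 13.1 and 15.3 at 24 h, 28.0 and 35.4 at 48 h, then 32.2 and 33.5 at 72 h. Both 24 h libraries were below all others and the later ones above all others (log2 -0.65, 0.51 and 0.55). The 72 h libraries exceeded those at 24 h by 1.21 (0.69 to 1.74; adjusted p = 2.43e-05), and also on the floor scale (0.64, adjusted p = 0.0254).

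The strongest ITGA6 site, 14.9 kb into the gene (chr2:172442062-172442419), was not called at any time, with 60.1 and 51.6 CPM untreated and 57.6 and 50.7 at 72 h. Another, 22.8 kb in (chr2:172449961-172450318), was level at 24 h and rose later: 29.5 and 22.6 CPM untreated, 24.1 and 27.9 at 24 h, 41.6 and 45.8 at 48 h, then 45.7 and 42.6 at 72 h (log2 -0.01, 0.73 and 0.75). A weaker site 35.9 kb in (chr2:172463153-172463363) rose most, from 9.07 and 6.78 CPM untreated to 20.3 and 33.5 at 72 h (log2 1.73, 1.18 to 2.30; adjusted p = 8.23e-09). In all, 2 of 8 ITGA6 sites were lower and 0 higher at 24 h, where all tested sites gave 26.8% and 28.1%. The lower count was thus near the share of all sites. At 48 h, 1 was lower and 3 higher (16.9% and 16.8%), and at 72 h 0 lower and 3 higher (17% and 18.9%). Each call at the start against untreated cells was lost in fits without 1 library, and such fits also hold fewer counts. At 24 h this was the fit without 24 h replicate 1 (log2 -0.53). At 48 h it was lost without 48 h replicate 2 (0.34) or without either untreated one (0.50 and 0.52). At 72 h it was lost without any 1 of the 4 compared, though the log2 fold change stayed between 0.53 and 0.59.

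ITGB4 (chr17:75721459-75757818) encodes the beta 4 subunit, which occurs in no other integrin and carries the signalling tail of the hemidesmosome. The site across its lower-coordinate end (chr17:75721063-75721800) had 19.8 and 23.2 CPM untreated, 17.6 and 13.2 at 24 h, 23.4 and 27.3 at 48 h, then 33.0 and 41.7 at 72 h. It was called only at 72 h (log2 0.79, 0.39 to 1.19), and at 24 h it fell short of the threshold (-0.47, adjusted p = 0.0543). The site 1.90 kb inside (chr17:75723237-75723478) was weak and moved both ways, with 8.50 and 8.39 CPM untreated, 2.52 and 4.22 at 24 h, 9.07 and 6.64 at 48 h, then 16.9 and 19.9 at 72 h. It was lower at 24 h (-1.32), higher at 72 h (1.12) and differed by 2.43 between the 2 times (1.53 to 3.48; adjusted p = 8.02e-08), the largest such difference among the sites named by rule.

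Another ITGB4 site, 14.2 kb below the gene and inside SAP30BP (chr17:75707086-75707356), had 40.5 and 41.6 CPM untreated, 8.55 and 14.2 at 24 h, 20.4 and 35.4 at 48 h, then 31.3 and 35.3 at 72 h. It fell by 1.85 at 24 h (-2.35 to -1.39; adjusted p = 3.10e-17) and was not called at 72 h (-0.30). At 24 h, 2 of the 5 tested ITGB4 sites were lower and 0 higher (26.8% and 28.1% of all tested sites). At 72 h, 0 were lower and 2 higher (17% and 18.9%). Both 72 h calls turned on the floor scale (-0.71 and -0.38). The higher calls between 24 and 72 h did not (0.70, 1.87 and 0.98 at the end, inside and in SAP30BP). Without 72 h replicate 2, both 72 h calls missed the threshold (adjusted p = 0.0789 at the end and 0.0508 inside). The 24 h call inside was lost without 24 h replicate 1 (0.0957), and the 48 h call in SAP30BP (log2 -0.55) without 48 h replicate 1 (-0.20, adjusted p = 0.575).

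PLEC (chr8:143915153-143976745) encodes plectin, the linker between integrin beta 4 and keratins. It held the strongest member site, in a cluster from 21.6 to 28.1 kb above its lower-coordinate end. The strongest, chr8:143939617-143940700, had 177 and 193 CPM untreated, 199 and 186 at 24 h, 439 and 462 at 48 h, then 468 and 463 at 72 h. It was level at 24 h (log2 0.06, -0.07 to 0.20) and then stood above every untreated and 24 h library, by 1.29 at 48 h (1.17 to 1.41) and 1.34 at 72 h (1.22 to 1.46; adjusted p = 1.10e-65). Also in the cluster, chr8:143942937-143943546, within 1 kb of the uncharacterised gene LOC124902040, had 54.7 and 53.2 CPM untreated, 48.3 and 53.8 at 24 h, 110.3 and 111 at 48 h, then 125 and 127 at 72 h (log2 -0.08, 1.03 and 1.22). A site between them, chr8:143942054-143942588, named after its values were seen, had 36.0 and 38.1 CPM untreated, 28.7 and 25.3 at 24 h, 64.2 and 56.1 at 48 h, then 61.8 and 71.5 at 72 h (log2 -0.45, 0.70 and 0.85, all called). None of these calls would pass with an assumed coefficient of variation of 0.2 (likelihood ratio test, adjusted p = 0.307, 0.143 and 0.0547).

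The cluster's lower edge, chr8:143936507-143937018, dipped first: 107 and 117 CPM untreated, 76.0 and 75.9 at 24 h, 162 and 159 at 48 h, then 164 and 174 at 72 h (log2 -0.56, 0.52 and 0.59, all called). With the coefficient of 0.2 these calls would not pass either (likelihood ratio test, adjusted p = 0.151, 0.285 and 0.181). Outside the cluster, chr8:143956509-143956977 lost its peak and most of its counts, with 39.1 and 36.5 CPM untreated, 7.55 and 7.38 at 24 h, 18.9 and 17.7 at 48 h, then 20.3 and 21.7 at 72 h. Its log2 fold change of -2.33 at 24 h (-2.95 to -1.78; adjusted p = 6.86e-21) was the lowest of any member, and it stayed lower at 48 and 72 h (-1.05 and -0.85) while rising by 1.48 from 24 h. The higher-coordinate end, shared with PARP10 (chr8:143976700-143977258), had 17.3 and 13.6 CPM untreated and 27.9 and 23.5 at 72 h (log2 0.73), a call lost without 72 h replicate 1 (adjusted p = 0.188) or untreated replicate 2 (0.0875).

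Over its 13 sites, PLEC had 7 lower and 0 higher calls at 24 h (26.8% and 28.1% of all tested sites). It had 2 and 6 at 48 h (16.9% and 16.8%) and 2 and 7 at 72 h (17% and 18.9%). Between 24 and 72 h, 0 were lower and 10 higher (16.4% and 19.4%). The floor scale put 13, 12 and 12 sites lower than in untreated cells and 0 higher (the strongest site gave -0.87, -0.13 and -0.17), and 7 higher and 0 lower between 24 and 72 h. PLEC lies within 5 Mb of a chromosome end, and tested sites in such regions were called higher more often than the whole set: 30.8% at 48 h, 31.0% at 72 h and 33.1% between 24 and 72 h. The part of this position in the PLEC values was not tested.

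DST (chr6:56457996-56954830, minus strand) encodes dystonin, whose epithelial form, also called BPAG1e, sits on the inner plaque of the hemidesmosome, while other forms serve nerve and muscle. On the TMM scale its ZEB1 signal was highest at 24 h, where 13 of 22 tested sites were higher and 0 lower (28.1% and 26.8% of all tested sites). At both 48 and 72 h, 6 were higher and 0 lower (16.8% and 16.9%, then 18.9% and 17%). Between 24 and 72 h, 5 were lower and 1 higher (16.4% and 19.4%). The clearest case was chr6:56809006-56809364, 146 kb from the outer start, with 12.7 and 13.6 CPM untreated, 46.8 and 41.1 at 24 h, 28.7 and 35.4 at 48 h, then 23.7 and 16.3 at 72 h. It rose at 24 h by 1.74 (1.37 to 2.14; adjusted p = 1.08e-18), and it was 1.13 lower at 72 h than at 24 h (log2 -1.13, -1.63 to -0.65). The floor-scaled value at 24 h was 0.81 (adjusted p = 2.74e-05) and at 48 h -0.13.

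At the outer start, which DST shares with BEND6 (chr6:56955001-56955661), the libraries had 29.2 and 35.5 CPM untreated, 54.8 and 50.1 at 24 h, 33.3 and 53.1 at 48 h, then 45.7 and 37.1 at 72 h. Both 24 h libraries were above the untreated pair (log2 0.71, 0.42 to 0.99), 1 of the 48 h libraries fell within it (0.43, called), and the 72 h value was not called (0.37, adjusted p = 0.0958). The 48 h call was lost without 48 h replicate 2 (log2 0.070, adjusted p = 0.877) or untreated replicate 1 (adjusted p = 0.266). A site 16.0 kb into the gene, chr6:56938631-56938985, had 46.2 and 56.5 CPM untreated and 64.9 and 64.3 at 24 h, and returned to 45.7 and 50.7 at 72 h (log2 0.34 at 24 h). Its call at 24 h was lost without either 24 h library or untreated replicate 1 (adjusted p from 0.0586 to 0.345).

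In contrast, chr6:56772764-56773169 followed the later course seen at LAMB3 and PLEC, with 21.8 and 25.2 CPM untreated, 26.7 and 20.6 at 24 h, 37.8 and 39.9 at 48 h, then 55.0 and 53.4 at 72 h (log2 0.02, 0.73 and 1.21, the last 0.86 to 1.56). The strongest DST site, chr6:56713286-56713682, rose little at each time: 46.7 and 43.9 CPM untreated, 58.3 and 59.6 at 24 h, 57.4 and 59.8 at 48 h, then 63.5 and 76.1 at 72 h (log2 0.38, 0.37 and 0.61). Leaving out a library ended its calls at 24 h (0.0726 without 24 h replicate 2, 0.0765 without untreated replicate 2), at 48 h (0.0992, 0.172 and 0.117 without 48 h replicates 1 and 2 and untreated replicate 2) and at 72 h (0.0509 without 72 h replicate 2), all as adjusted p. The site at a listed internal start (chr6:56643044-56643171) was not called at any time, and its pooled level ran between 5.69 and 8.24 CPM.

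Of the 7 tested DST sites without an untreated peak, 6 were higher at 24 h, beside 68.4% of all tested sites without one. Of the 15 DST sites with an untreated peak, 7 were higher, beside 22.4% of all tested sites with one. An extreme of this kind, named after its values were seen, is chr6:56528487-56528646, with 1 count in the pooled untreated libraries and 31 at 24 h, a ratio of 52.9 with a counting interval from 8.82 to 2156. With floor scaling, 6 DST sites were higher at 24 h, 5 of them without an untreated peak, and 8 were lower. Of the 15 with such a peak, the floor scale put 1 higher (chr6:56809006-56809364) and 8 lower at 24 h. At 72 h 16 were lower and 0 higher. DST is a long gene, and among tested sites inside protein-coding genes of 200 kb or more, 32.4% were higher at 24 h and 20.7% lower between 24 and 72 h. The part of gene length in the DST values was not tested.

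**Figure D4:**
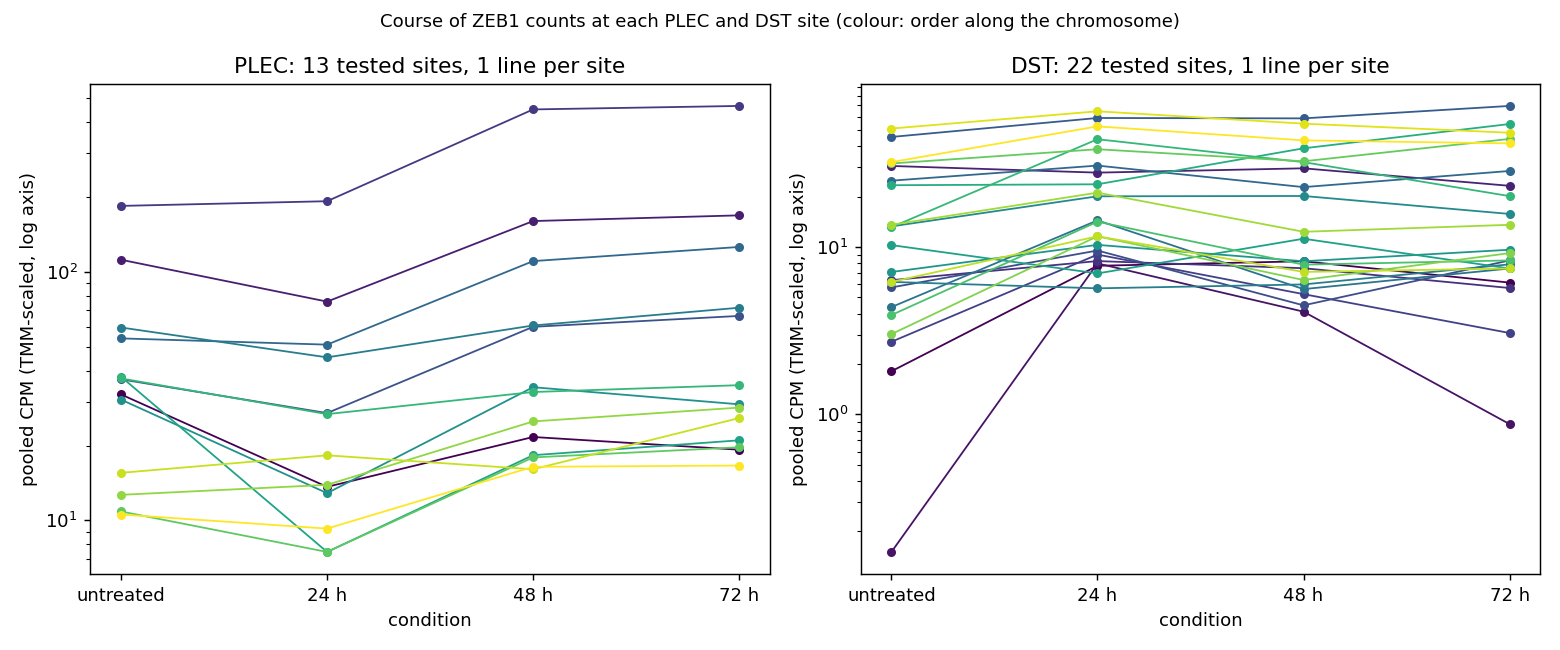
Pooled TMM-scaled CPM (log axis) of every tested PLEC and DST site on the vertical axis over the 4 conditions on the horizontal axis, with 1 line per site. Most PLEC lines dip or stay level at 24 h and rise at 48 h, and most DST lines are highest at 24 h. On the floor scale PLEC sites are lower than untreated at every time. The median DST site is too (log2 -0.317, -1.115 and -1.094), with 8 DST sites called lower and 6 higher at 24 h.

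Genes whose proteins work beside the members were followed at their strongest sites. CD151, a tetraspanin that binds laminin-binding integrins, had its strongest site at chr11:834936-835283, with 34.6 and 38.1 CPM untreated, 29.2 and 22.1 at 24 h, then 41.5 and 41.7 at 72 h (log2 -0.49, called, and 0.20, not called). COL17A1, the transmembrane collagen of the hemidesmosome, had its strongest site at chr10:104054581-104054798, with 16.4 and 15.8 CPM untreated and 23.7 and 19.9 at 72 h, and none of its 3 tested sites was called against untreated cells. ERBIN, a scaffold that binds integrin beta 4, had 1 tested site, chr5:65925131-65925453, with 7.37 and 11.0 CPM untreated and 16.9 and 13.6 at 72 h (log2 0.75, adjusted p = 0.0460). Over these 3 partner genes, the 24 h calls were 6 lower and 2 higher among 12 tested sites (26.8% and 28.1% of all tested sites). The 72 h calls were 1 lower and 1 higher (17% and 18.9%). All 6 lower calls at 24 h fell to CD151. Apart from its strongest site, these lay inside or within 1 kb of PNPLA2 or CRACR2B. The 1 higher call of CD151 lay by POLR2L and TSPAN4.

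Related genes were counted by the same 20 kb rule. Near the 9 other laminin chain genes, the 24 h calls were 12 lower and 10 higher among 43 tested sites, and the 72 h calls 1 lower and 13 higher (median log2 0.23, against 0.42 for the members). Near 6 further laminin receptors, among them ITGA3, ITGB1 and DAG1, 15 of 32 sites were lower and 4 higher at 24 h, and 8 lower and 5 higher at 72 h. For basement membrane linkers such as COL7A1 and NID1, 19 of 51 were lower and 11 higher at 24 h, and 14 lower and 11 higher at 72 h. Basal keratins and other plakins, such as KRT5 and DSP, gave 19 lower and 7 higher of 48 at 24 h, and 5 lower and 9 higher at 72 h. The median log2 at 72 h was 0.05 for the receptors, -0.07 for the linkers and 0.02 for the keratins and plakins. All tested sites gave 26.8% lower and 28.1% higher at 24 h, then 17% and 18.9% at 72 h. Differences between the lists were not tested.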

How the data were processed

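ZEB1 CUT&RUN was measured in 8 libraries, 2 for each of 4 conditions. The deposited table holds raw counts per consensus site on hg38, and 0 of its value columns were left unused. Each deposited peak list gives, per the file layout, a fold enrichment over the caller's background and −log10 p and q columns. The peak names carry replicate 1, while the labels name the same list for both libraries of a condition, so whether a list describes 1 library or the pair is not given in the sources used here. The submitters' processing notes name MACS2 2.1.1, featureCounts, Bowtie2 2.2.6 and cutadapt 2.4 among their tools; whether reads or fragments were counted, whether duplicates were kept and whether an IgG control entered peak calling is not given in the sources used here.

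Counts were fitted with edgeR 4.0.16 (R 4.3.3; TMM, filterByExpr by condition, robust quasi-likelihood test, condition as the only term) over all 8 libraries, and p-values were Benjamini-Hochberg adjusted over 46436 of 52981 sites. The fit was also run on counts simulated with its own fitted spread. That run holds no spread between cultures and cannot show how the calls would fare with it. The common biological coefficient of variation was 0.00988, which reflects counting noise. Libraries with the same replicate number shared no deviations, so the numbers were not used as pairs. Peaks were matched to sites by any shared base. The background floor was recovered from the fold and p columns of the lists and was 108%, 101% and 95.2% of that of the untreated cells at 24, 48 and 72 h, and site counts per unit of floor were 49.0%, 37.5% and 35.6%. Intervals are exact binomial at 95% (scipy 1.17.1) and cover counting error only.

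Gene positions, listed starts and promoter sequences came from RefSeq tables of GRCh38.p14. All 6 member and 3 partner symbols matched; another partner gene is not reported here. No genome sequence was used, so exons and introns are not given. The members, gene lists and the rule for named sites were chosen with earlier results of these data known. The rule names sites at a start (promoter overlap or within 1 kb), the 3 strongest sites of each gene, and for each comparison the called site with the largest log2 fold change in each direction above the median abundance (12.7 CPM), in all 30 sites; for partners it names the strongest site. Alternatives were library totals, DESeq2 1.42.0, no filter, the background floor, an assumed coefficient of variation of 0.2 with a likelihood ratio test, the replicate block, leaving out each library, other margins (gene body, 50 kb) and stricter peaks.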

Additional observations from a re-analysis of the deposited data

Results flagged for a closer look

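At 21 of the 30 named sites the effect at 72 h differed from that at 24 h by the direct test between these times (edgeR, adjusted p under 0.05), 17 higher and 4 lower at 72 h. The rule that named the sites fixes part of this count, since it takes the largest changes, those between these times included. Of the 24 sites named for lying at a start or for their level, 12 were higher and 3 lower. The 24 include a LAMA3 start site too weak to test. All tested sites gave 19.4% and 16.4%, but many of the 24 were picked for high counts, at which smaller changes pass the test. These shares are thus not a like comparison. Values here are log2 fold changes of 72 h against 24 h on the TMM scale, each resting on n = 1 per condition. At LAMB3 they were 0.60 at the internal start, 1.02 at the outer start, and 1.15, 1.67, 1.08 and 0.69 at the sites 0.755, 3.54, 4.90 and 7.70 kb upstream. At ITGA6 they were 1.21 at the start and 0.76 and 1.40 at 22.8 and 35.9 kb into the gene. ITGB4 gave 1.26 at its lower-coordinate end, 2.43 inside and 1.55 in SAP30BP. PLEC gave 1.15, 1.27 and 1.30 at the named sites of its cluster and 1.48 outside it. DST had 1 site higher (1.19, chr6:56772764-56773169) and 2 lower (-1.13, chr6:56809006-56809364, and -0.42, chr6:56938631-56938985). LAMA3 had 2 lower, -1.01 (chr18:23719708-23720058) and -0.80 (chr18:23828580-23828747). On the floor scale 17 member sites were higher and 22 lower between these times, where 85.05% of all calls on that scale were lower. The call was lost without 1 of the libraries compared at 5 of these sites: both at LAMA3, the LAMB3 internal start (adjusted p = 0.140 without 72 h replicate 1, 0.202 without 24 h replicate 1), the LAMB3 site 7.70 kb upstream (0.152 without 72 h replicate 2, 0.0835 without 24 h replicate 2) and the DST site with -0.42 (from 0.0738 to 0.262).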

How the results depend on the processing

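Of 152 recomputed counts and medians, 108 stayed within 1.5 times or within the replicate spread. Replicate numbers did not pair libraries (correlations of replicate differences from -0.013 to 0.0084 over 11609 sites), and the replicate block changed none of the 112 values of named sites and gave 16 lower and 19 higher members at 24 h. DESeq2 ended 24 of these calls, a coefficient of variation of 0.2 ended 34, library totals 1, and leaving out a library 21. Members lower and higher at 24 h were 8 and 9 with DESeq2, 8 and 9 with the coefficient of 0.2, 50 and 6 with the floor. At 48 h, lower counts were 2 with DESeq2, 2 with the coefficient, 60 with the floor, 4 in gene bodies, 11 with the 50 kb margin and 4 to 5 without single libraries; higher counts were 8 with the coefficient and 2 with the floor. At 72 h, lower counts were 3, 3 and 57, with 12 at 50 kb, and higher counts 14, 12 and 2. Between 24 and 72 h, lower counts were 11 with library totals, 1, 2 and 22, and 3 to 4 without single libraries; the higher count was 17 with the floor. The median log2 was -0.97, -1.22, -1.08 and -0.14 with the floor in the 4 comparisons. At 24 h it was 0.051 with library totals, -0.13 at 50 kb and -0.14 to -0.0097 without single libraries; at 48 h, 0.13 to 0.26 without single libraries; between 24 and 72 h, 0.32 with library totals, 0.11 in gene bodies and 0.26 to 0.40 without single libraries. Floor scaling reversed 49 values of named sites, by its own shift of all sites. At 24 h these became -0.18 and -0.83 at LAMA3, -0.81, -0.51 and -0.47 at LAMB3, -0.87 and -0.70 at PLEC, and -0.56, -0.91, -0.59 and -0.23 at DST. At 48 h they were -0.94, -1.23 and -1.27 at LAMA3, -0.56, -0.70 and -1.29 at LAMB3, -0.91, -0.69 and -0.036 at ITGA6, -1.18 at ITGB4, -0.91, -0.13, -0.39 and -1.37 at PLEC, and -1.18, -1.05, -0.69, -0.13, -1.33 and -0.99 at DST. At 72 h they were -1.09 at LAMA3, -0.79, -0.059, -0.52 and -1.02 at LAMB3, -0.95 and -0.75 at ITGA6, -0.71 and -0.38 at ITGB4, -0.91, -0.17, -0.28 and -0.77 at PLEC, and -0.89, -0.29, -0.88 and -1.13 at DST. For 72 h against 24 h, 1 DST value became -0.33. Other causes were not tested. Site counts limit the weak members: 5 of 75 were too low to test.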
